A study of Homo sapiens with 12 samples.

Results

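Aminoacyl-tRNA synthetases are the enzymes that join each amino acid to its transfer RNA before translation. Their genes were followed in PC3, a human line grown from a bone metastasis of prostate cancer, in 12 RNA libraries of 3 per group. The groups were cells given silver nanoparticles (AgNPs), cells given a second agent that the labels name DOC, cells given both (COM), and cells given phosphate-buffered saline (BLANK), all labelled wild type. The labels give no dose, time or batch, and they do not say whether the libraries of a group came from separate cultures, so p-values measure only the spread between these libraries. The members are 35 synthetase genes of the 43613 genes in the deposited table, taken from a named list: 19 cytosolic genes, whose symbols end in 1 or are FARSA and FARSB, and 16 mitochondrial genes, whose symbols end in 2.

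Cells keep separate synthetases for the cytosol and for mitochondria, and nuclear genes encode both sets. The enzymes belong to class I or class II, which bind ATP with unrelated folds, and GARS1 and KARS1 make the glycine and lysine enzymes of both compartments. Several cytosolic synthetases sit in one multi-synthetase complex held by scaffold proteins. Many cytosolic synthetase genes are known targets of ATF4, a transcription factor made when amino acids run short or protein folding is stressed, which binds C/EBP-ATF response elements in its target genes together with a C/EBP partner.

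All 35 members passed the filter on low counts, with 86 counts (PARS2) to 12119 counts (EPRS1) in a library. Libraries held 13049868 to 13362290 counts on linear transcripts in AgNPs, 18603100 to 19421873 in DOC, 10996446 to 11069928 in COM and 22573481 to 22769479 in BLANK, so depth differed between groups without overlap. The epithelial markers KRT8, KRT18, EPCAM and CDH1 were present in every library, with summed CPM (counts scaled to library size) of 439 to 447 in AgNPs, 358 to 403 in DOC, 392 to 423 in COM and 398 to 414 in BLANK. The luminal prostate gene TMPRSS2 and the immune gene PTPRC were at or near 0, as was DCN of the fibroblast list. The summed fibroblast list, mostly COL1A2, was 94.2 to 106 CPM in AgNPs, 114 to 127 in DOC, 80.8 to 88.5 in COM and 112 to 125 in BLANK, and the neuroendocrine list, mostly ENO2, was 35.2 to 36.3, 30.3 to 31.6, 40.98 to 45.01 and 29.3 to 30.2 CPM in AgNPs, DOC, COM and BLANK. PTPRC and CD68, the immune markers used here, summed to 37.5 to 43.5 CPM in AgNPs, 47.5 to 48.8 in DOC, 46.9 to 54.3 in COM and 39.97 to 44.2 in BLANK, nearly all CD68. The part of these marker differences in the results was not tested. Within groups, DOC replicate 1 and BLANK replicate 1 stood farther from their fellow libraries than any other library did, with chi-square per degree of freedom of 4.48 and 4.81 between DOC replicate 1 and the others and 3.75 and 3.50 for BLANK replicate 1, where 1 is sampling noise and the remaining pairs lay between 1.45 and 1.99. In bulk RNA, fewer cells that express a gene and less RNA per cell cannot be told apart.

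The start regions of the members were read for 1 sequence. The core of the C/EBP-ATF response element, TGATGNAA, was searched on both strands in RefSeq promoter windows (GRCh38.p14), which run from 250 bases before to 50 bases after each annotated gene start. Windows were given for 30 members, and LARS1, VARS1, YARS1, AARS2 and VARS2 had none. The motif lay in 7 of 16 cytosolic members, in 1 of 14 mitochondrial members and in 1217 of 27305 genes of the whole table (4.46%). A match is a string of letters and not a measured binding site. The 8 matches are printed 5′ to 3′ on each gene's own strand, with the motif in capitals, where TTNCATCA is its reverse complement, because 6 of them belong to genes that rose after silver nanoparticles.

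The windows are chr16:70289666-70289733 (minus strand) for AARS1, chr11:3057398-3057465 (minus) for CARS1, chr7:30594805-30594872 (plus) for GARS1, chr9:92293683-92293750 (minus) for IARS1, chr12:57488024-57488091 (plus) for MARS1, chr18:57621807-57621862 (minus) for NARS1, chr5:33440927-33440994 (plus) for TARS1 and chr12:32756067-32756134 (minus) for YARS2. Genes with large changes after COM span chr11:3000929-3057423 (CARS1), chr7:30594735-30634033 (GARS1), chr1:109213893-109238182 (SARS1), chr14:100333790-100376327 (WARS1) and chr13:110641410-110713522 (CARS2) in the same build. Distances are to the annotated start whose window holds the match, and a gene can have several starts. The motif begins 187 bases before that start in AARS1, 2 before in CARS1, 33 before in GARS1, 13 before in IARS1, 4 before in MARS1 and 197 before in YARS2, and at base 15 of the transcript in NARS1 and base 3 in TARS1.

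AARS1: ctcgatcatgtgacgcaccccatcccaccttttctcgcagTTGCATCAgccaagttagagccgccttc
CARS1: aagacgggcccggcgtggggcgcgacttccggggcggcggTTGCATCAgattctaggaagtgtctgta
GARS1: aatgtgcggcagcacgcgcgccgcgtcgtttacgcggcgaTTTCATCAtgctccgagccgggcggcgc
IARS1: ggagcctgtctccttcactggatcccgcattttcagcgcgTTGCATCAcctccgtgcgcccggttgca
MARS1: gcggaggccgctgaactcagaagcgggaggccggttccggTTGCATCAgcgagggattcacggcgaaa
NARS1: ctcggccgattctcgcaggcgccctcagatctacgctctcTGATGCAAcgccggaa
TARS1: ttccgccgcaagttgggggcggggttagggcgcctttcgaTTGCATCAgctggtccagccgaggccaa
YARS2: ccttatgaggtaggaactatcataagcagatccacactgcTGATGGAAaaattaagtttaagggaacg

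After AgNPs, most cytosolic synthetase genes changed and the rises were the larger changes, whereas the mitochondrial genes that changed all fell. Against BLANK, 10 of 19 cytosolic members rose, 5 fell and 4 did not pass an edgeR adjusted p of 0.05. Of 16 mitochondrial members 0 rose, 6 fell and 10 did not pass, beside 30.9% of the 19986 genes tested that were called, 14.9% higher and 16.0% lower. At an unadjusted p of 0.05, 0 mitochondrial members were higher, and DESeq2 and limma-trend each called 0 higher. The median log2 fold change was 0.10 for the cytosolic members and -0.11 for the mitochondrial members, beside 0.01 for all genes tested. With every library thinned to the depth of the shallowest, 15 cytosolic and 6 mitochondrial members were still called. Without BLANK replicate 1, 15 cytosolic and 6 mitochondrial members were called.

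Levels are given below as normalised CPM, counts scaled by each library's TMM-adjusted total, for the 3 libraries of each group, and changes as log2 fold changes ± SE of the edgeR fit. CARS1, the cysteine enzyme, had 75.8, 82.9 and 80.6 CPM in AgNPs, 53.8, 56.3 and 53.4 in DOC, 90.9, 90.6 and 86.2 in COM and 51.1, 53.4 and 51.5 in BLANK libraries. Its log2 fold change after AgNPs was 0.62 ± 0.04, a 1.53-fold rise (edgeR adjusted p = 4.52e-14), the highest among the members. The AgNPs and COM libraries all lay above the DOC and BLANK libraries, which overlapped. GARS1, the glycine enzyme, had 399.7, 392 and 397 CPM in AgNPs, 254, 258 and 259 in DOC, 439, 449.8 and 430.3 in COM and 281, 266 and 267 in BLANK libraries, with a log2 fold change of 0.55 ± 0.03 after AgNPs (edgeR adjusted p = 1.09e-17). SARS1, the serine enzyme, had 155, 153 and 155 CPM in AgNPs, 108, 104 and 110.1 in DOC, 176, 182 and 179 in COM and 108, 107 and 107 in BLANK libraries, with a log2 fold change of 0.52 ± 0.03 (edgeR adjusted p = 3.07e-15). In both genes the AgNPs and COM libraries were high and did not overlap each other, and the DOC libraries lay near or below BLANK.

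AARS1, the alanine enzyme, had 368, 357 and 369.7 CPM in AgNPs, 252, 244 and 245 in DOC, 365, 388 and 379 in COM and 266, 267 and 269 in BLANK libraries, a log2 fold change of 0.45 ± 0.03 after AgNPs (edgeR adjusted p = 3.82e-15). WARS1, the tryptophan enzyme, which is also known as an interferon-induced gene, had 345, 348 and 353 CPM in AgNPs, 241, 252 and 257 in DOC, 397, 403 and 390.0 in COM and 261, 259 and 261 in BLANK libraries, with a log2 fold change of 0.42 ± 0.03 (edgeR adjusted p = 1.80e-14). For both, every AgNPs library lay above every DOC and BLANK library. MARS1, the methionine enzyme of the complex, had 274, 271 and 286 CPM in AgNPs against 212, 224 and 222 in BLANK libraries, and YARS1, the tyrosine enzyme, had 273, 278 and 275 CPM in AgNPs against 222, 220.0 and 215 in BLANK libraries. Their log2 fold changes were 0.34 ± 0.03 and 0.33 ± 0.03. On the same scale NARS1, the asparagine enzyme, rose by 0.23 ± 0.03, EPRS1, the joined glutamate and proline enzyme, by 0.11 ± 0.03, and TARS1, the threonine enzyme, by 0.10 ± 0.03. AgNPs and BLANK libraries did not overlap in HARS1, FARS2 and PARS2, which did not pass, and the share over all genes was not counted. They did not overlap either in any of the 10 genes that rose. Beside these rises stand gene overlaps whose reads could be shared if strand was not used in counting, which is not stated: MARS1 overlaps ARHGAP9 by 757 bases and DDIT3, an ATF4-branch gene, by 65, and YARS1 overlaps S100PBP by 797.

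**Figure D1:**
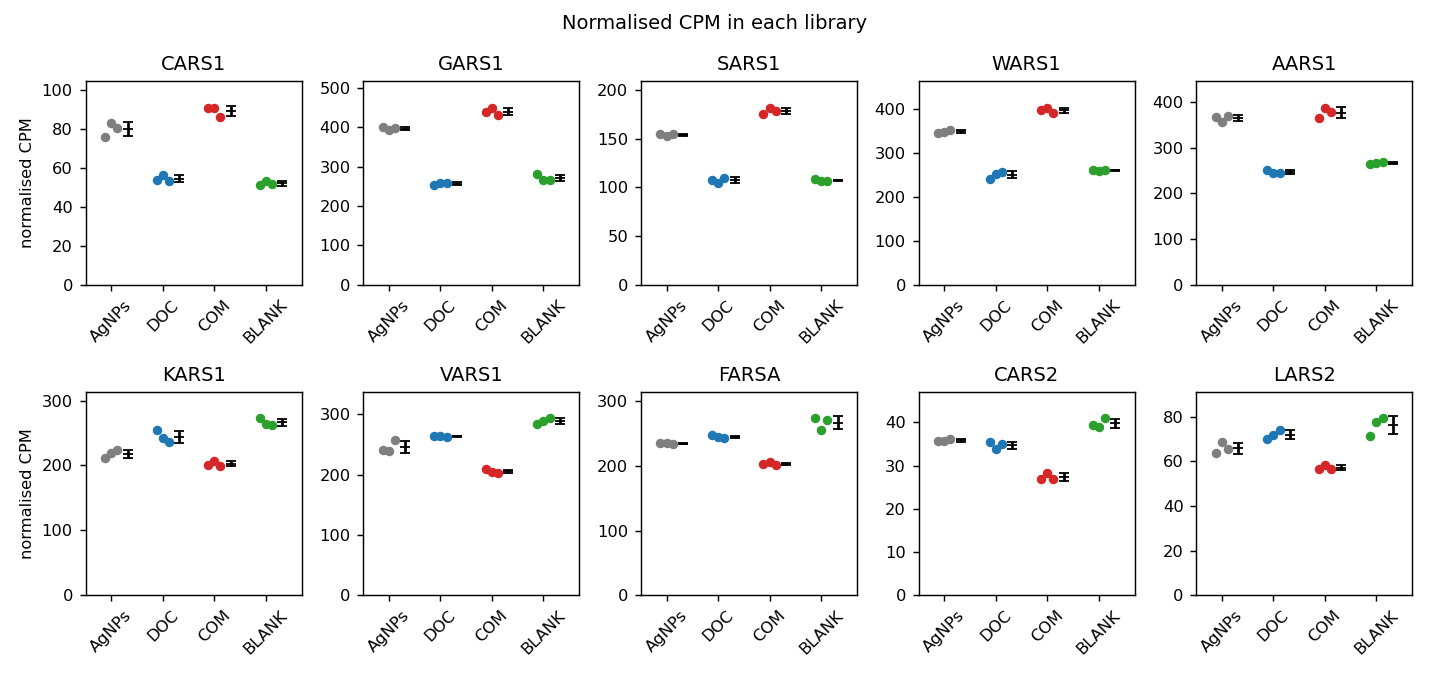
Normalised CPM (vertical axis, linear, one panel per gene) of 8 cytosolic and 2 mitochondrial members in each library, by group on the horizontal axis in the order AgNPs, DOC, COM, BLANK, with points for libraries and bars for the mean and SD of 3 libraries. CARS1, GARS1, SARS1, WARS1 and AARS1 are high in AgNPs and COM, KARS1, VARS1 and FARSA are lower there than in BLANK, and CARS2 and LARS2 are lowest in COM.

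A smaller group of cytosolic genes went the other way. KARS1, the lysine enzyme, had 212, 219.9 and 223 CPM in AgNPs, 254, 242 and 237 in DOC, 201, 207 and 199.8 in COM and 273, 264 and 263 in BLANK libraries, and fell by 0.29 ± 0.03 on the log2 scale after AgNPs (edgeR adjusted p = 4.02e-09). VARS1, the valine enzyme, had 240.0, 239.6 and 257 CPM in AgNPs, 264, 263 and 263 in DOC, 208, 204 and 203 in COM and 283, 288 and 293 in BLANK libraries, a change of -0.23 ± 0.03 (edgeR adjusted p = 1.29e-07). For both genes all 3 AgNPs libraries lay below all 3 BLANK libraries. QARS1, the glutamine enzyme, changed by -0.21 ± 0.03, and FARSA and FARSB, the subunits of the phenylalanine enzyme, by -0.19 ± 0.03 and -0.16 ± 0.04. HARS1, IARS1, LARS1 and RARS1, the histidine, isoleucine, leucine and arginine enzymes, did not pass, with log2 fold changes of 0.04, -0.01, 0.06 and 0.01. HARS1 and HARS2 are neighbouring, closely similar genes whose counts could be split between them, so their values are uncertain.

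The cytosolic members can be split by whether the enzyme sits in the multi-synthetase complex. Of the 7 complex members (EPRS1, IARS1, KARS1, LARS1, MARS1, QARS1 and RARS1) 2 rose, 2 fell and 3 did not pass after AgNPs, with a median log2 fold change of 0.01. Of the 12 cytosolic members outside it 8 rose, 3 fell and 1 did not pass, with a median of 0.28. Over all genes tested 14.9% were higher and 16.0% lower, with a median of 0.01. By enzyme class, counting EPRS1, which holds an enzyme of each class, as class I, 5 of 10 class I and 5 of 9 class II cytosolic genes rose. These splits are given as counts and were not tested.

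Among mitochondrial members, MARS2, the methionine enzyme, had 25.5, 27.1 and 27.2 CPM in AgNPs against 30.1, 33.2 and 33.4 in BLANK libraries, a change of -0.28 ± 0.06 (edgeR adjusted p = 0.000492). EARS2, the glutamate enzyme, had 40.8, 46.7 and 42.9 CPM in AgNPs against 51.1, 52.1 and 52.9 in BLANK libraries, a change of -0.26 ± 0.05 (edgeR adjusted p = 0.000108). The libraries of the groups did not overlap in either gene. NARS2 (-0.22 ± 0.06), LARS2 (-0.21 ± 0.04), CARS2 (-0.15 ± 0.05) and IARS2 (-0.12 ± 0.03) also fell. The other 10 lay between -0.17 for FARS2 (edgeR adjusted p = 0.0631) and 0.14 for PARS2, the proline enzyme, which had the fewest counts of any member. CARS2 overlaps ING1 by 900 bases, EARS2 overlaps GGA2 by 3606 and FARS2 overlaps LYRM4 by 11017. Some calls after AgNPs ended when 1 library was left out: those of TARS1 without BLANK replicate 3 (edgeR adjusted p = 0.0552), CARS2 without AgNPs replicates 1, 2 or 3 or BLANK replicate 3 (edgeR adjusted p between 0.0772 and 0.103) and IARS2 without AgNPs replicate 1 (edgeR adjusted p = 0.0632). The call also ended for NARS2 without AgNPs replicate 3 (edgeR adjusted p = 0.0594). Members outside the calls passed in the same way, LARS1 without AgNPs replicate 1 (edgeR adjusted p = 0.0445) and VARS2 without AgNPs replicate 3 (edgeR adjusted p = 0.0476).

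**Figure D2:**
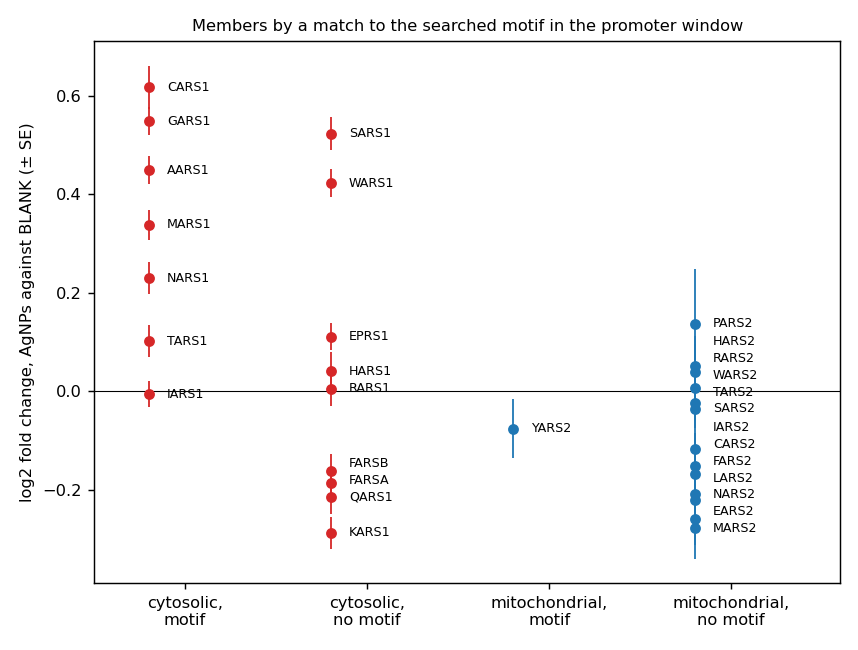
Log2 fold change of each member after AgNPs against BLANK (vertical axis), with the members split on the horizontal axis by set and by whether the promoter window holds TGATGNAA on either strand. Of the cytosolic genes with the motif 6 rose and IARS1 did not pass, with changes of -0.01 to 0.62.

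Set beside the start regions printed above, 6 of the 9 cytosolic genes that rose and had a window held the motif (AARS1, CARS1, GARS1, MARS1, NARS1 and TARS1), and EPRS1, SARS1 and WARS1 did not. Of the 4 that fell and had a window, 0 held it. Among those that did not pass, IARS1 held it, 1 of 3. Of the mitochondrial genes it lay in 0 of 6 that fell and in 1 of 8 that did not pass. SARS1 and WARS1 rose by more than MARS1, NARS1 and TARS1 while holding no match in these windows. The relation was described and not tested.

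After DOC alone, 0 synthetase genes rose and the decreases that passed lay between -0.24 and -0.10 on the log2 scale. Against BLANK, 11 of 19 cytosolic members fell and 8 did not pass, and 3 of 16 mitochondrial members fell and 13 did not pass (edgeR). At an unadjusted p of 0.05, 0 of the 35 members were higher, and DESeq2 and limma-trend called 0 higher. Of all genes 17.0% were called, 7.16% higher and 9.81% lower. The median log2 fold change was -0.11 in the cytosolic set and -0.07 in the mitochondrial set, beside 0.00 over all genes. The count rests on the choice of values: limma-trend on log2(FPKM + 1) called 5 cytosolic and 1 mitochondrial members, all lower.

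IARS1, the isoleucine enzyme, had 388, 385 and 397 CPM in DOC against 444, 449 and 444 in BLANK libraries, a change of -0.19 ± 0.03 (edgeR adjusted p = 3.26e-06). Of the complex, EPRS1 (-0.12 ± 0.03), KARS1 (-0.13 ± 0.03), LARS1 (-0.11 ± 0.03), MARS1 (-0.17 ± 0.03) and QARS1 (-0.16 ± 0.03) fell as well, which makes 6 of its 7 members lower, beside 5 of 12 outside it. Outside the complex the genes that fell were AARS1 (-0.11 ± 0.03), FARSA (-0.12 ± 0.03), HARS1 (-0.11 ± 0.04), VARS1 (-0.13 ± 0.03) and YARS1 (-0.10 ± 0.03). The 3 genes with the largest rises after AgNPs did not pass after DOC, with log2 fold changes of 0.07 ± 0.04 for CARS1, -0.08 ± 0.03 for GARS1 (edgeR adjusted p = 0.0585) and 0.00 ± 0.03 for SARS1. FARSB, NARS1, RARS1, TARS1 and WARS1 also did not pass, at -0.07, -0.09, 0.02, -0.06 and -0.06.

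The mitochondrial genes that fell after DOC were AARS2, the alanine enzyme, at -0.24 ± 0.07, EARS2 at -0.21 ± 0.05 and CARS2 at -0.20 ± 0.05. CARS2 had 35.4, 33.9 and 34.9 CPM in DOC against 39.3, 39.04 and 40.9 in BLANK libraries, without overlap, whereas the AARS2 libraries of both groups overlapped. The 13 others lay between -0.15 for YARS2, the tyrosine enzyme (edgeR adjusted p = 0.0616), and 0.16 for PARS2. After DOC, several calls changed when 1 library was left out. Calls ended for HARS1 without AgNPs replicates 1, 2 or 3, DOC replicates 2 or 3 or BLANK replicates 1, 2 or 3 (edgeR adjusted p between 0.0590 and 0.236), YARS1 without DOC replicate 2 or BLANK replicates 1 or 2 (edgeR adjusted p between 0.0633 and 0.0793) and AARS2 without DOC replicate 3 or BLANK replicate 3 (edgeR adjusted p between 0.0745 and 0.120). Calls appeared for NARS1 without DOC replicate 1 or COM replicates 1 or 3 (edgeR adjusted p between 0.0131 and 0.0485), TARS1 without DOC replicate 1 (edgeR adjusted p = 0.0111) and IARS2 without DOC replicate 1 (edgeR adjusted p = 0.0453). They also appeared for LARS2 without BLANK replicate 1 (edgeR adjusted p = 0.0484) and YARS2 without BLANK replicate 1 (edgeR adjusted p = 0.0234). Without DOC replicate 1, 13 cytosolic and 4 mitochondrial members were called, and at equal depth the calls of HARS1 and YARS1 ended (edgeR adjusted p = 0.0789 and 0.0626) and NARS1 passed (0.0485). Counts without BLANK replicate 1 were 9 and 5.

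With both agents, cytosolic genes were called in both directions and most mitochondrial genes were lower. Against BLANK, 10 cytosolic members rose, 7 fell and 2 did not pass, and 2 mitochondrial members rose, 10 fell and 4 did not pass (edgeR). The background was high, with 49.6% of all genes called, 25.1% higher and 24.5% lower. The median log2 fold change was 0.06 for the cytosolic members, -0.26 for the mitochondrial members and 0.03 for all genes tested. The AgNPs, DOC and COM comparisons share the BLANK libraries, so they are not independent of each other. Without BLANK replicate 1, 15 cytosolic and 15 mitochondrial members were called after COM. COM libraries were the shallowest, and thinning every library to equal depth ended the COM calls of EPRS1 (edgeR adjusted p = 0.102), TARS1 (0.0585) and PARS2 (0.0708) and added TARS2 (0.0407).

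CARS1 rose 1.72-fold, a log2 fold change of 0.78 ± 0.04 (edgeR adjusted p = 3.35e-17). On the log2 scale SARS1 rose by 0.74 ± 0.03, GARS1 by 0.70 ± 0.03 and WARS1 by 0.61 ± 0.03, with edgeR adjusted p of 5.92e-20, 4.27e-21 and 2.27e-19. In these 4 genes the lowest COM library lay above the highest library of every other group. Changes are of sums over the coding and noncoding transcripts of a gene, and shares for SARS1 and MARS1 are given below. AARS1 (0.50 ± 0.03), YARS1 (0.35 ± 0.03), MARS1 (0.32 ± 0.03) and NARS1 (0.26 ± 0.03) followed, and TARS1 (0.08 ± 0.03, edgeR adjusted p = 0.0421) and EPRS1 (0.06 ± 0.03, 0.0498) were just inside the threshold. VARS1 had the largest cytosolic decrease, -0.49 ± 0.03 (edgeR adjusted p = 1.02e-15), with 208, 204 and 203 CPM in COM against 283, 288 and 293 in BLANK libraries. QARS1 (-0.40 ± 0.04), FARSA (-0.40 ± 0.03), KARS1 (-0.39 ± 0.03), FARSB (-0.27 ± 0.04), HARS1 (-0.10 ± 0.04) and IARS1 (-0.09 ± 0.03) also fell. LARS1 (-0.02) and RARS1 (-0.05) did not pass, and RARS1 passed in no comparison.

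CARS2, the mitochondrial partner of CARS1, had 26.8, 28.4 and 27.01 CPM in COM against 39.3, 39.04 and 40.9 in BLANK libraries, a 1.45-fold decrease with a log2 fold change of -0.54 ± 0.06 (edgeR adjusted p = 5.23e-10). SARS2, the serine enzyme, had 11.1, 9.53 and 11.95 CPM in COM against 15.3, 14.3 and 14.2 in BLANK libraries, and LARS2, the leucine enzyme, had 56.4, 58.3 and 56.7 in COM against 71.6, 77.6 and 79.3 in BLANK libraries. The COM libraries were below the BLANK libraries in all 3 genes. MARS2 (-0.45 ± 0.07), EARS2 (-0.43 ± 0.05), SARS2 (-0.43 ± 0.09), AARS2 (-0.42 ± 0.08), LARS2 (-0.41 ± 0.05), NARS2 (-0.29 ± 0.06), FARS2 (-0.29 ± 0.07), IARS2 (-0.24 ± 0.03) and WARS2 (-0.19 ± 0.07) fell too. PARS2 rose by 0.35 ± 0.11 on the log2 scale (edgeR adjusted p = 0.00996), with 9.22, 7.80 and 9.49 CPM in COM against 6.80, 7.22 and 6.83 in BLANK libraries, and RARS2, the arginine enzyme, rose by 0.18 ± 0.06 (edgeR adjusted p = 0.00821). DESeq2, and edgeR with no filter on low counts, called neither of these 2. HARS2, TARS2, VARS2 and YARS2 did not pass, at -0.04, -0.11, -0.15 and -0.11. Leaving out 1 library ended the COM calls of EPRS1 without DOC replicates 2 or 3, COM replicates 1, 2 or 3 or BLANK replicates 2 or 3 (edgeR adjusted p between 0.0609 and 0.212), HARS1 without AgNPs replicates 1, 2 or 3, COM replicates 1, 2 or 3 or BLANK replicates 1, 2 or 3 (edgeR adjusted p between 0.0518 and 0.1001) and TARS1 without DOC replicate 3, COM replicates 1 or 3 or BLANK replicates 1 or 3 (edgeR adjusted p between 0.0563 and 0.229). It also ended those of PARS2 without COM replicates 1 or 3 (edgeR adjusted p between 0.0510 and 0.0704) and WARS2 without COM replicate 1 or BLANK replicate 3 (edgeR adjusted p between 0.116 and 0.119). It brought calls to TARS2 without BLANK replicate 1 (edgeR adjusted p = 0.0452), VARS2 without COM replicate 2 or BLANK replicate 1 (edgeR adjusted p between 0.00615 and 0.0408) and YARS2 without BLANK replicate 1 (edgeR adjusted p = 0.0462).

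**Figure D3:**
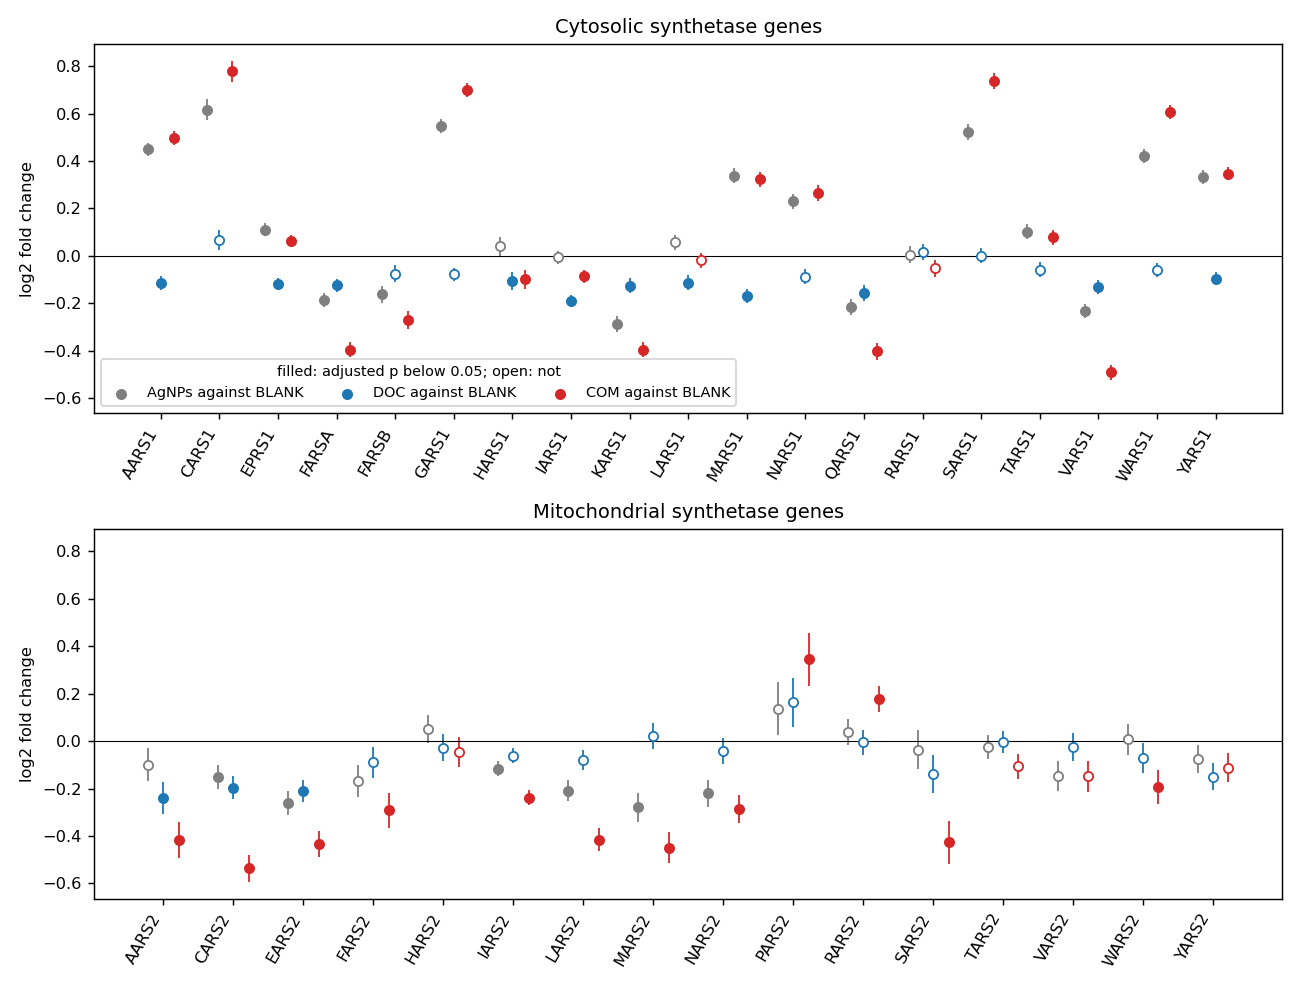
Log2 fold change with its SE (vertical axis) of all 35 members after AgNPs, DOC and COM against BLANK. Members run along the horizontal axis, with a panel for each set. Filled points are calls at an edgeR adjusted p below 0.05. Cytosolic changes run from -0.49 to 0.78 in COM and mitochondrial changes from -0.54 to 0.35.

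Setting each cytosolic gene beside the mitochondrial gene for the same amino acid shows where the sets part. The comparison used 15 pairs, counting FARSA and FARSB each with FARS2, so these 2 pairs share a gene. EPRS1, which serves glutamate and proline, was not paired with EARS2 or PARS2. After AgNPs EPRS1 changed by 0.11, EARS2 by -0.26 and PARS2 by 0.14. After COM they changed by 0.06, -0.43 and 0.35. After COM the cytosolic change was above the mitochondrial one in 11 of 15 pairs, with a median difference of 0.40 on the log2 scale. CARS1 minus CARS2 was the widest at 1.31, followed by SARS1 minus SARS2 at 1.16, while VARS1 minus VARS2 was -0.34. After AgNPs the cytosolic change was above in 11 of 15 (median difference 0.27, from -0.09 to 0.77). After DOC it was above in 7 of 15, with a median difference of -0.03. These are descriptions, with no test over the pairs.

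**Figure D4:**
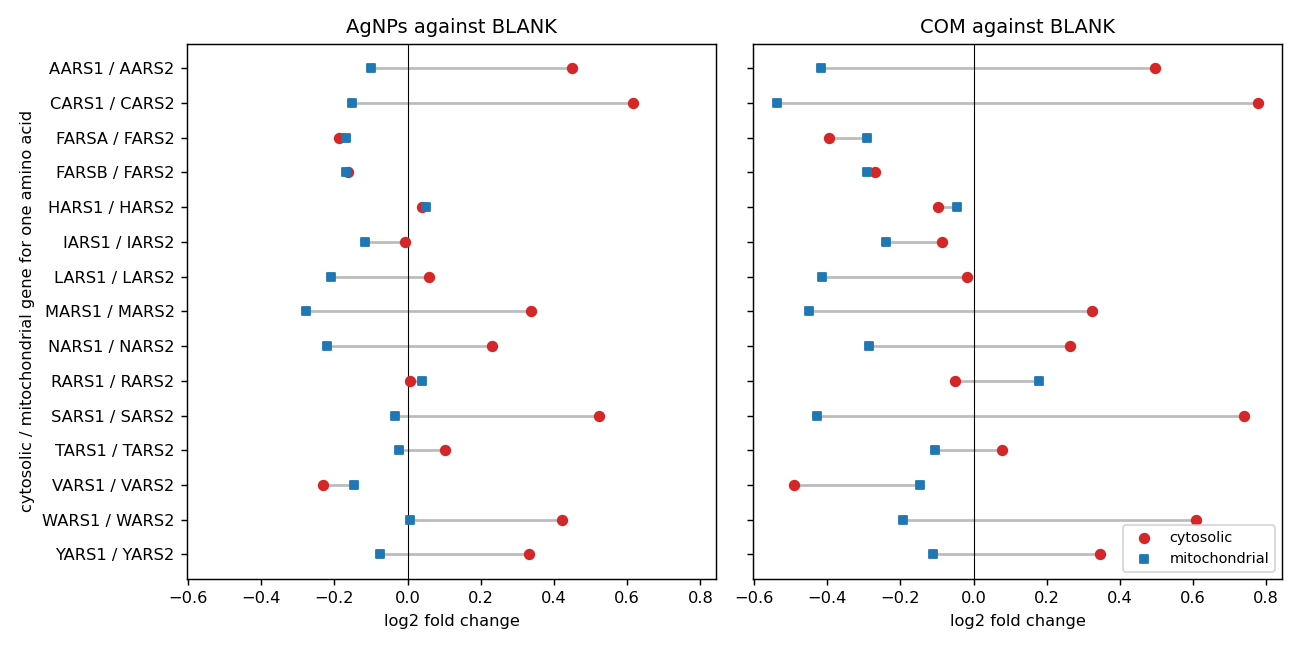
Log2 fold change against BLANK (horizontal axis) of each cytosolic gene and its mitochondrial partner, joined by a line, for the 15 pairs running down the page, after AgNPs in one panel and COM in the other. The CARS1 and CARS2 line is the longest in both, 0.77 after AgNPs and 1.31 after COM.

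Levels between genes are compared on the deposited length-scaled values (FPKM, mean ± SD of 3 libraries). In COM, GARS1 (185 ± 3.96) and WARS1 (150.3 ± 2.62) had the highest levels among the members, against 113 ± 3.33 and 99.00 ± 0.261 in BLANK. In BLANK the highest were FARSA (149.8 ± 4.88) and KARS1 (135 ± 2.72), which were at 114 ± 1.18 and 103 ± 1.84 in COM. CARS1, the member with the largest fold change, was the lowest cytosolic gene in BLANK, with 34.9 ± 1.07 in COM and 20.6 ± 0.488 in BLANK. Mitochondrial levels ran from 2.997 ± 0.116 for PARS2 to 58.4 ± 0.914 for IARS2 in BLANK, so the sets overlapped. Summed over the set, cytosolic FPKM was 1688 ± 18.7 in AgNPs, 1438 ± 8.37 in DOC, 1677 ± 11.5 in COM and 1524 ± 10.02 in BLANK, and mitochondrial FPKM was 238 ± 6.40 in AgNPs, 244 ± 3.64 in DOC, 218 ± 1.03 in COM and 254 ± 7.04 in BLANK. The ratio of the sums was 7.11 ± 0.130 in AgNPs, 5.89 ± 0.0542 in DOC, 7.68 ± 0.0382 in COM and 6.01 ± 0.203 in BLANK.

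The COM libraries set against AgNPs show what came with DOC when AgNPs were present. Of the cytosolic members 4 rose, 6 fell and 9 did not pass, and of the mitochondrial members 0 rose, 6 fell and 10 did not pass (edgeR). DESeq2 and limma-trend also called 0 mitochondrial members higher, and 1 was higher at an unadjusted p of 0.05. Of all genes 21.9% were called, 9.87% higher and 12% lower. The genes that rose were SARS1 (0.22 ± 0.03, edgeR adjusted p = 1.04e-05), WARS1 (0.19 ± 0.03), CARS1 (0.16 ± 0.04) and GARS1 (0.15 ± 0.03). Those that fell were VARS1 (-0.26 ± 0.03), FARSA (-0.21 ± 0.03), QARS1 (-0.19 ± 0.04), HARS1 (-0.14 ± 0.04), KARS1 (-0.11 ± 0.03) and IARS1 (-0.08 ± 0.03) in the cytosolic set. In the mitochondrial set CARS2 (-0.39 ± 0.06), SARS2 (-0.39 ± 0.10), AARS2 (-0.32 ± 0.08), LARS2 (-0.21 ± 0.05), EARS2 (-0.17 ± 0.06) and IARS2 (-0.12 ± 0.03) fell. AARS1, MARS1, NARS1 and YARS1, which rose after AgNPs, differed here by 0.05, -0.01, 0.03 and 0.01 and did not pass. Calls in COM against AgNPs ended for CARS1 without AgNPs replicate 1 (edgeR adjusted p = 0.0832), HARS1 without AgNPs replicate 1 or COM replicates 2 or 3 (edgeR adjusted p between 0.0516 and 0.0621) and IARS1 without AgNPs replicates 2 or 3 or COM replicates 1 or 3 (edgeR adjusted p between 0.0591 and 0.118). The same held for KARS1 without AgNPs replicates 2 or 3 or COM replicates 1 or 3 (edgeR adjusted p between 0.0586 and 0.0836) and EARS2 without AgNPs replicate 2 or COM replicates 1 or 3 (edgeR adjusted p between 0.0825 and 0.197). Without 1 library, members passed as follows, FARSB without AgNPs replicate 1, DOC replicates 1 or 3 or BLANK replicate 1 (edgeR adjusted p between 0.0352 and 0.0490), LARS1 without AgNPs replicate 1 (edgeR adjusted p = 0.0332) and WARS2 without AgNPs replicate 1 or DOC replicates 1 or 3 (edgeR adjusted p between 0.0135 and 0.0471). The 6 cytosolic genes that fell became 3 without COM replicate 3 and 3 with RefSeq rows only, where HARS1, IARS1 and KARS1 ended (edgeR adjusted p = 0.0534, 0.131 and 0.0795) and RARS2 rose (0.0445). At equal depth EARS2 ended (0.102), and FARSB (0.0471) and MARS2 (0.0304) passed as lower.

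The COM libraries set against DOC show what came with AgNPs when DOC was present. Here 12 cytosolic members rose, 5 fell and 2 did not pass, and 1 mitochondrial member rose, 8 fell and 7 did not pass (edgeR), over a background of 36.6% of all genes called, 18.1% higher and 18.5% lower. GARS1 (0.78 ± 0.03, edgeR adjusted p = 3.06e-22), SARS1 (0.74 ± 0.03), CARS1 (0.71 ± 0.04), WARS1 (0.67 ± 0.03) and AARS1 (0.61 ± 0.03) rose most. MARS1 (0.49 ± 0.03), YARS1 (0.44 ± 0.03), NARS1 (0.35 ± 0.03), EPRS1 (0.18 ± 0.03), TARS1 (0.14 ± 0.03), IARS1 (0.10 ± 0.03) and LARS1 (0.09 ± 0.03) rose too. VARS1 (-0.36 ± 0.03), FARSA (-0.27 ± 0.03), KARS1 (-0.27 ± 0.03), QARS1 (-0.25 ± 0.04) and FARSB (-0.19 ± 0.04) fell, and HARS1 (0.01) and RARS1 (-0.07) did not pass. Among mitochondrial genes RARS2 rose (0.18 ± 0.06), and MARS2 (-0.47 ± 0.07), CARS2 (-0.34 ± 0.06), LARS2 (-0.33 ± 0.05), SARS2 (-0.29 ± 0.09), NARS2 (-0.24 ± 0.06), EARS2 (-0.22 ± 0.06), FARS2 (-0.20 ± 0.07) and IARS2 (-0.18 ± 0.03) fell. In COM against DOC the calls that ended were those of LARS1 without DOC replicate 3 or COM replicates 1 or 3 (edgeR adjusted p between 0.0526 and 0.0866), FARS2 without DOC replicates 1 or 3 or COM replicates 1 or 3 (edgeR adjusted p between 0.0532 and 0.114) and RARS2 without COM replicate 2 (edgeR adjusted p = 0.0515). Another was that of SARS2 without COM replicate 2 (edgeR adjusted p = 0.136). Calls that appeared were those of AARS2 without DOC replicate 3 (edgeR adjusted p = 0.00584) and VARS2 without COM replicate 2 (edgeR adjusted p = 0.0230). At equal depth FARS2 (0.0580) and SARS2 (0.0547) no longer passed in edgeR.

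For 4 cytosolic genes the change that came with DOC differed with AgNPs present. The difference is the log2 fold change of COM against AgNPs minus that of DOC against BLANK, tested as an interaction in the same edgeR fit. It was positive and passed for WARS1 (0.24 ± 0.04, edgeR adjusted p = 0.000476), GARS1 (0.23 ± 0.04, 0.00119), SARS1 (0.21 ± 0.05, 0.0129) and AARS1 (0.16 ± 0.04, 0.0403), over a background of 1.11% of all genes called, 0.731% higher and 0.375% lower. WARS1 changed with DOC by 0.19 when AgNPs were present and by -0.06 when they were not, and GARS1 by 0.15 and -0.08. SARS1 changed by 0.22 and 0.00 in the same order, and AARS1 by 0.05 and -0.11. The other 15 cytosolic members did not pass, from -0.13 for VARS1 to 0.16 for MARS1. Of the mitochondrial members 0 passed in edgeR, DESeq2 or limma-trend, and 2 had an unadjusted p below 0.05. CARS1 had the largest rise after COM but an interaction of 0.09 ± 0.06 (edgeR adjusted p = 0.654). The 4 calls were made on counts, and limma-trend on log2(FPKM + 1) called 0 of 19. With no filter on low counts the AARS1 call ended (edgeR adjusted p = 0.102). Calls of this difference also ended for AARS1 without AgNPs replicates 1, 2 or 3, DOC replicates 2 or 3, COM replicates 2 or 3 or BLANK replicates 1, 2 or 3 (edgeR adjusted p between 0.0509 and 0.217) and SARS1 without AgNPs replicate 2, DOC replicate 2 or COM replicate 2 (edgeR adjusted p between 0.0527 and 0.0707). A call appeared for MARS1 without BLANK replicate 1 (edgeR adjusted p = 0.0430). Without AgNPs replicate 2, DOC replicate 2 or COM replicate 2, 2 cytosolic members were called in each case.

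**Figure D5:**
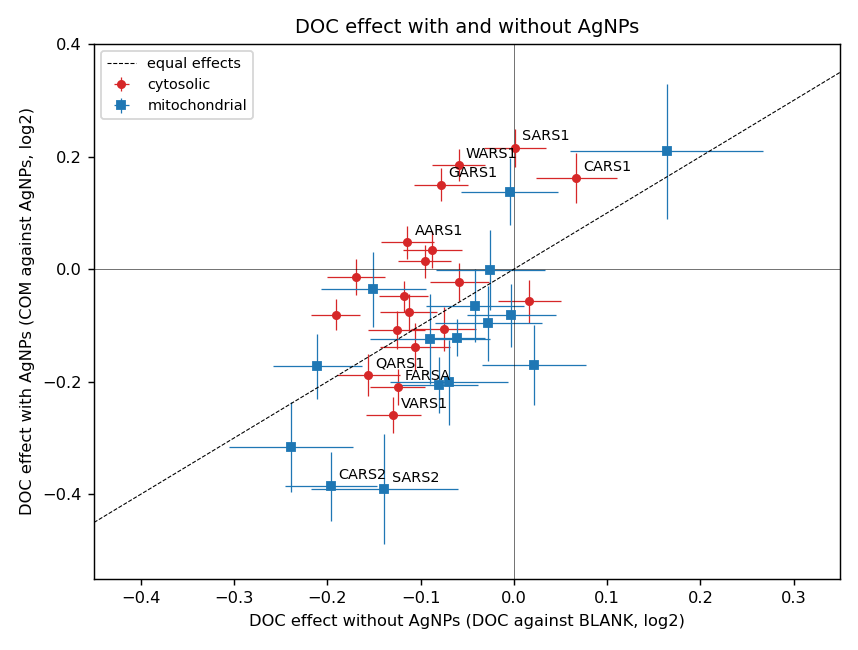
Log2 fold change that came with DOC when AgNPs were present (COM against AgNPs, vertical axis) against that without AgNPs (DOC against BLANK, horizontal axis), one point per member by set, with the line of equal change. WARS1, GARS1, SARS1 and AARS1, whose difference passed, lie above the line, by 0.24, 0.23, 0.21 and 0.16.

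Of the transcripts of the members, those of WARS1, MARS1 and SARS1 were looked at after the values had been seen. The shares come from the deposited estimated counts, which divide reads among overlapping transcripts. The transcript NM_173701.1, which encodes 471 amino acids, took 46.6, 40.9 and 44.5% of the WARS1 counts in AgNPs, 55.1, 56.1 and 61.1% in DOC, 29.04, 37.6 and 44.6% in COM and 62.1, 61.7 and 60.8% in BLANK libraries. The transcript NM_004184.3, of the same coding length, took 34.8, 30.1 and 30.3% in AgNPs, 24.6, 19.1 and 16.9% in DOC, 34.7, 38.6 and 32.6% in COM and 21.4, 20.6 and 23.4% in BLANK libraries. The first was lower, and the second higher, in every AgNPs and COM library than in every BLANK library. For MARS1, the coding transcript NM_004990.3 took 73.6, 69.8 and 71.2% in AgNPs and 61.2, 68.9 and 65.7% in COM libraries. It took 78.4, 59.2 and 77.6% in DOC and 84.0, 76.9 and 76.5% in BLANK libraries. For SARS1, NM_006513.3 took 77.1, 76.6 and 76.3% in AgNPs, 74.0, 75.5 and 72.4% in COM and 83.8, 84.1 and 82.0% in BLANK. Both coding shares were lower in every AgNPs and COM library than in every BLANK library, so coding counts changed by less than the sums. For KARS1, the transcript NM_001130089.1, whose 625 codons are more than the 597 of the main form and which is known to encode the mitochondrial enzyme, took 20.4 ± 1.37% in AgNPs, 21.8 ± 1.56% in DOC, 23.7 ± 3.11% in COM and 18.5 ± 1.96% in BLANK libraries (SD, n = 3), and the groups overlapped.

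Among the other genes that serve charging and use of tRNA, XPOT and EEF1A1 rose after AgNPs, and the rest that passed fell. The counts below stand beside 30.9% of all genes called after AgNPs, 14.9% higher and 16.0% lower. Of the 3 scaffolds of the complex 0 rose, 1 fell and 2 did not pass, and EEF1E1, a scaffold also named AIMP3, changed by -0.31 ± 0.07. Of 4 genes that modify charged mitochondrial tRNA, called other mitochondrial routes below, 0 rose, 1 fell and 3 did not pass. The gene that fell was GATC (-0.15 ± 0.06), a subunit of the amidotransferase that makes mitochondrial glutaminyl-tRNA. Of 7 genes of tRNA maturation and export 1 rose, 3 fell and 3 did not pass: ELAC2, the endonuclease that trims the 3′ ends of precursor tRNA, changed by -0.18 ± 0.05, and XPOT, the tRNA exporter, by 0.17 ± 0.03. Of 5 cytosolic elongation genes 1 rose, 1 fell and 3 did not pass (EEF1A1 0.08 ± 0.03 and EEF1D -0.13 ± 0.04), and of 4 mitochondrial ones 0 rose, 3 fell and 1 did not pass (GFM1 -0.21 ± 0.03 and TUFM -0.15 ± 0.03). EEF1A1 has many near-identical copies in the genome, so its counts are uncertain. Of 2 genes of selenocysteinyl-tRNA synthesis and 4 that clear mischarged tRNA or peptidyl-tRNA, 0 passed in edgeR, and TARS3 was too low to be tested. The call of GATC ended without AgNPs replicates 1, 2 or 3 or BLANK replicates 1 or 3 (adjusted p between 0.0648 and 0.174), that of EEF1A1 without AgNPs replicate 3 or BLANK replicate 1 (between 0.0520 and 0.0702) and those of EEF1D and ELAC2 without AgNPs replicate 2 (0.0679 and 0.0566).

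After DOC, where 17.0% of all genes were called and 9.81% were lower, 4 of 7 maturation and export genes fell, as did 4 of 5 cytosolic and 2 of 4 mitochondrial elongation genes, 1 of 3 scaffolds and 1 of 4 genes of other mitochondrial routes, and none of these genes rose in edgeR. Without DOC replicate 2 the GFM1 call ended (edgeR adjusted p = 0.0552), leaving 1 mitochondrial elongation gene, and without BLANK replicate 1 the XPOT call ended (0.0573). The scaffold count became 0 without BLANK replicate 1 or DOC replicate 2 and at equal depth, and that of the other mitochondrial routes 0 without BLANK replicates 1 or 2 or DOC replicate 2 and at equal depth. With limma-trend on log2(FPKM + 1) the calls of XPOT (0.197), ELAC2 (0.113), EEF1A1 (0.133) and GFM1 (0.312) ended. After COM, where 49.6% of all genes were called and 24.5% were lower, all 3 scaffolds and all 4 genes of other mitochondrial routes fell, 5 of 7 maturation and export genes fell and 2 rose, 3 of 5 cytosolic and 3 of 4 mitochondrial elongation genes fell, and 3 of 4 clearing genes fell. XPOT changed by 0.18 ± 0.03 after COM and EEF1E1 by -0.33 ± 0.08.

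The ATF4 branch, which earlier results of these data had shown to rise with AgNPs, is given for context. All 10 genes listed rose after AgNPs (median log2 fold change 1.27) and after COM (1.54), while after DOC 4 rose, 1 fell and 5 missed the threshold (0.02). Among those 4, SLC7A11 was barely inside it (0.11 ± 0.04, edgeR adjusted p = 0.0459), its DOC and BLANK libraries overlapped, and the call ended in 16 of 22 other settings, among them DESeq2 (0.119), equal depth (0.113) and without AgNPs replicates 1, 2 or 3, DOC replicates 2 or 3, COM replicates 1, 2 or 3 or BLANK replicates 2 or 3 (0.0562 to 0.289). ATF4 itself had 318, 314 and 328 CPM in AgNPs, 201, 189.8 and 189.6 in DOC, 368, 376 and 374 in COM and 201, 194 and 204 in BLANK libraries, with log2 fold changes of 0.67 ± 0.03 after AgNPs, -0.07 ± 0.03 after DOC (edgeR adjusted p = 0.113) and 0.89 ± 0.03 after COM. ASNS, asparagine synthetase, a metabolic enzyme that charges no tRNA, changed by 1.24 ± 0.04 after AgNPs, 0.00 ± 0.04 after DOC and 1.57 ± 0.04 after COM. SESN2, a stress-induced inhibitor of mTORC1 signalling, and SLC7A11, the cystine transporter, rose by 3.14 ± 0.06 and 1.93 ± 0.04 after AgNPs. Without DOC replicate 1 the ATF4 decrease after DOC passed (edgeR adjusted p = 0.0153). Beside these, CARS1, the synthetase with the largest rise, had log2 fold changes of 0.62 after AgNPs and 0.78 after COM.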

How the data were processed

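Per the labels, total RNA of PC3 cells was extracted with TRIzol and made into libraries with a BGI mRNA kit. The values come from the deposited table of 221796 transcript rows. Per the submitters' processing notes, HISAT2, Bowtie2 2.2.5 and RSEM were used with build GRCh38, without stated roles, and the strand setting is not given in the sources used here. The deposited table holds estimated counts, which need not be whole, and a second value per library whose size fits FPKM, read so from its values because the file header gives no unit.

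The estimated counts of linear rows were summed per gene over 43613 genes, leaving out 44096 circular rows, and rounded. edgeR 4.0.16 was fitted to all 12 libraries with 1 coefficient per group (TMM factors, filterByExpr, robust quasi-likelihood test, two-sided), which left 19986 genes and a common BCV of 0.0334. Genes whose p stayed below 0.05 after Benjamini-Hochberg adjustment over these 19986 were called. SE is the absolute log2 fold change divided by the square root of F. The comparisons against BLANK were checked on simulated counts in which far fewer genes changed than were called here. The other comparisons and the difference of DOC changes were not simulated. Alternatives were DESeq2 1.42.0, edgeR with a replicate block, with RLE size factors, without its filter on low counts or with at least 1 CPM in 3 libraries, only the groups compared, RefSeq rows only, thinning to 10996394 counts, limma 3.58.1 on log2(FPKM + 1) and log2(FPKM + 0.1), and each library left out. A count of 0 allows up to 3 counts, 0.132 to 0.273 CPM. All 35 members are named whatever their result. From each list of other genes, up to 2 called after AgNPs are named, with ATF4 and ASNS. A further gene of tRNA maturation is not reported here and is in no count. The members and lists were chosen with earlier results of these data known.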

Additional observations from a re-analysis of the deposited data

Results flagged for a closer look

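For 4 cytosolic synthetase genes the change that came with DOC differed with and without AgNPs by a direct test of the difference. On the log2 scale the change with AgNPs present minus the change without was 0.24 for WARS1 (edgeR adjusted p = 0.000476), 0.23 for GARS1 (0.00119), 0.21 for SARS1 (0.0129) and 0.16 for AARS1 (0.0403). In each gene all 3 COM libraries lay above all 3 DOC libraries, and the share over all genes was not counted. That also held for CARS1, whose difference did not pass (edgeR adjusted p = 0.654), so it does not show the difference. COM and AgNPs libraries overlapped in AARS1 and did not in the other 3. Leaving out 1 library ended the AARS1 call in 10 of 12 cases and the SARS1 call in 3 of 12, and ended neither the WARS1 nor the GARS1 call.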

How the results depend on the processing

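No called member changed sign under any of the 22 settings. After DOC, limma-trend called 5 cytosolic members with either pseudocount, against 11 in edgeR, and 1 mitochondrial member with either, against 3. For the difference of DOC changes it called 0 cytosolic members with either, against 4. Over all genes limma-trend called 1061 and 1103 after DOC, against 3391, and 54 and 49 for the difference, against 221. With 1 library left out, 2204 genes passed after DOC without DOC replicate 2, and 115 to 144 passed for the difference without AgNPs replicates 1, 2 or 3 or COM replicates 2 or 3. The cause was not tested. Leaving out each library gave 14 to 16 cytosolic and 4 to 6 mitochondrial members called after AgNPs, 9 to 13 cytosolic and 2 to 5 mitochondrial after DOC, 14 to 17 cytosolic and 10 to 15 mitochondrial after COM, 7 to 11 cytosolic and 5 to 7 mitochondrial for COM against AgNPs, 16 to 17 cytosolic and 8 to 9 mitochondrial for COM against DOC and 2 to 4 cytosolic and 0 mitochondrial for the difference. Apart from those named so far, the total of members called in each set stayed within 1.5 times of the edgeR count. By direction, the 2 mitochondrial members higher after COM became 0 with DESeq2 and with no filter, and 1 at equal depth and without COM replicates 1 or 3, and the 1 higher in COM against DOC became 0 with no filter and without COM replicate 2. Members whose call ended in 3 or more settings were, with the number of settings, CARS2 5 (adjusted p 0.0756 to 0.103), NARS2 3 (adjusted p 0.0594 to 0.169) and TARS1 3 (adjusted p 0.0506 to 0.103) after AgNPs, AARS2 4 (adjusted p 0.0745 to 0.200), HARS1 14 (adjusted p 0.0590 to 0.236) and YARS1 8 (adjusted p 0.0523 to 0.252) after DOC, EPRS1 15 (adjusted p 0.0609 to 0.860), HARS1 13 (adjusted p 0.0518 to 0.171), PARS2 5 (adjusted p 0.0510 to 0.0708), TARS1 10 (adjusted p 0.0563 to 0.620) and WARS2 3 (adjusted p 0.0765 to 0.119) after COM, EARS2 7 (adjusted p 0.0683 to 0.930), HARS1 4 (adjusted p 0.0516 to 0.0621), IARS1 7 (adjusted p 0.0525 to 0.131) and KARS1 5 (adjusted p 0.0586 to 0.0836) in COM against AgNPs, FARS2 6 (adjusted p 0.0532 to 0.114), LARS1 7 (adjusted p 0.0508 to 0.304) and SARS2 3 (adjusted p 0.0547 to 0.136) in COM against DOC and AARS1 14 (adjusted p 0.0509 to 0.286) and SARS1 5 (adjusted p 0.0527 to 0.113) for the difference. EARS2 in COM against AgNPs had an adjusted p of 0.928 with limma-trend on log2(FPKM + 1). The fit with a replicate block called 15 cytosolic and 6 mitochondrial members after AgNPs, 11 and 3 after DOC and 16 and 12 after COM. It ended EPRS1 after COM (0.0662) and AARS1 for the difference (0.0665), the deviations of same-numbered libraries correlated above 0.1 in 2 of 18 pairs, and 6 of 12 libraries correlated best with a library of their own number. The difference was not run on the compared groups alone, since it uses all 4. Depth limits PARS2 most, with 86 counts at its lowest.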
